A study of Arabidopsis thaliana with 16 samples.

Results

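High doses of hydrogen peroxide were set against low doses in whole Arabidopsis seedlings, on 8 of the 16 arrays of a study of reactive oxygen and brassinosteroid signalling. The high class held the 4 arrays at 50 and 100 mM H2O2 and the low class the 4 arrays at 1 and 5 mM, and each dose had 1 array with the brassinosteroid epi-BL (BL) and 1 with its ethanol solvent. The arrays were chosen by dose alone. All were of wild-type plants of the Col ecotype, 12 days old, grown in liquid half-strength MS medium with sucrose. The seedlings spent 1 h in the dark, then 30 min with H2O2 in the medium, and then a further 1 h in the dark with 1 µM BL or solvent while the H2O2 stayed in place. The remaining arrays were 2 at 25 mM and 6 at 0 mM, and the only test they entered was 1 alternative fit of all 16 arrays. The labels do not say whether the arrays came from separate cultures, and no dose was repeated at 1 BL level, so a p-value here measures only how far these arrays, and the 2 doses of a class, spread.

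Hydrogen peroxide is made in chloroplasts, peroxisomes, mitochondria and at the cell surface, and it serves as a signal as well as an oxidant. Cells remove it with catalases, ascorbate peroxidases and thiol enzymes, and they answer it with calcium signals, kinase cascades and transcription factors. Chaperones, glutathione S-transferases and glycosyltransferases are among the genes it is known to raise, and chloroplasts carry their own small genome and their own RNA polymerase. Plants destroy excess H2O2 quickly, so the concentration in the medium is not that inside the cell.

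Values are log2 signals of Affymetrix probe sets, so a difference of 1 is a 2-fold change. Of 22746 probe sets, 12695 reached a signal of 5 on 2 or more of the 8 arrays and were tested, and 6784 of these carried 1 gene name, for 6743 genes. Array medians lay between 5.56 and 5.71, and the lowest signal in the table was 2.12, so that falls towards this level are compressed. Correlations across probe sets were 0.987 to 0.995 between the BL and solvent arrays of a dose, 0.972 to 0.991 between the 2 doses of a class and 0.938 to 0.977 between classes. The first principal component took 66.1% of the variance and placed the arrays at 1, 5, 50 and 100 mM in the order of dose. The number of arrays limits the precision. As a check of the tissue, the root marker PYK10 was high on the 8 arrays (13.0 to 14.1), the guard cell regulator FMA lay between 3.59 and 5.97, and the root hair expansins EXPA7 and EXPA18 lay near the lowest signal (2.13 to 2.28). No defining leaf marker had a probe set with its name alone, although 10 nuclear photosynthesis genes had a median signal between 13.4 and 13.8 on the 8 arrays.

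A measure of RNA quality and labelling differed between the dose classes. The 3′ minus 5′ difference of 6 control transcript pairs averaged 1.84 ± 0.139 log2 units on the high-dose arrays and 1.54 ± 0.024 on the low-dose arrays (SD, n = 4 each). The high-dose arrays read 1.74 and 1.73 at 50 mM and 1.88 and 2.03 at 100 mM (solvent, then BL), against 1.55 and 1.51 at 1 mM and 1.53 and 1.57 at 5 mM. The classes did not overlap, and the difference of 0.306 gave p = 0.0286 in a two-sided exact permutation test, the smallest p that 4 arrays against 4 allow. The 6 arrays at 0 mM lay between 1.40 and 1.60, a range that held all 4 low-dose arrays. The 2 arrays at 25 mM read 1.70 and 1.80 (solvent, then BL), above that range. The part of this measure in the differences below was not tested. The third 0 mM solvent array lay farthest from the 0 mM median for 53 of the 84 genes named by the rule in the methods, so 0 mM levels are given as medians.

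**Figure D1:**
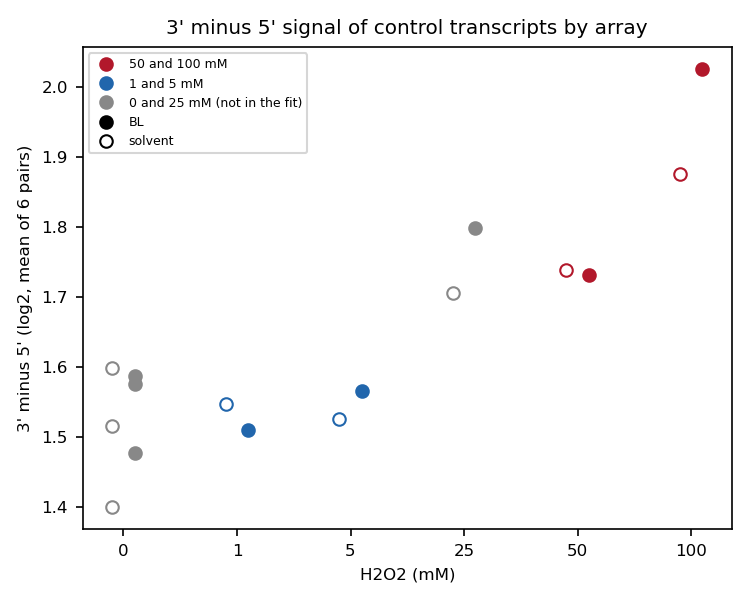
The 3′ minus 5′ log2 signal of control transcripts (vertical axis, mean of 6 pairs) on each of the 16 arrays by H2O2 dose in mM (horizontal axis). Filled points are BL arrays and open points solvent arrays. The 50 and 100 mM arrays (1.73 to 2.03) all lie above the 1 and 5 mM arrays (1.51 to 1.57).

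The comparison of high with low doses asked which transcripts separate seedlings at high doses from seedlings at low doses. In limma's moderated test with BL as an additive term and Benjamini-Hochberg adjustment (called at an adjusted p under 0.05), 3313 of 12695 probe sets were called (26.1%). Of these, 1912 were higher (15.1%) and 1401 lower (11.0%) at high doses. Large changes were mostly falls. Among called probe sets, 494 fell and 279 rose by at least 1 log2 unit, and 85 fell and 28 rose by at least 2. The median change of called probe sets was 0.57 for rises and -0.78 for falls, beside 0.05 over all probe sets tested. Before any test, 2390 probe sets had all 4 high-dose arrays above all low-dose arrays (18.8%) and 1672 had them all below (13.2%). Genes named below were called unless stated otherwise, and their adjusted p comes from this fit. Where all 4 arrays of a class lay under 5, the level of the filter, the gene was tested only through the other class. The measured change and its adjusted p are then a description, and the text gives the smaller change counted against 5 as a lower bound.

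The calls rested on the 100 mM arrays more than on the others. Without both 100 mM arrays, 155 probe sets were called higher and 224 lower, and with BL and solvent arrays of a dose averaged, so that 2 values stood against 2, the counts were 226 and 257. With the dose as a random block they were 1126 and 1008.

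**Figure D2:**
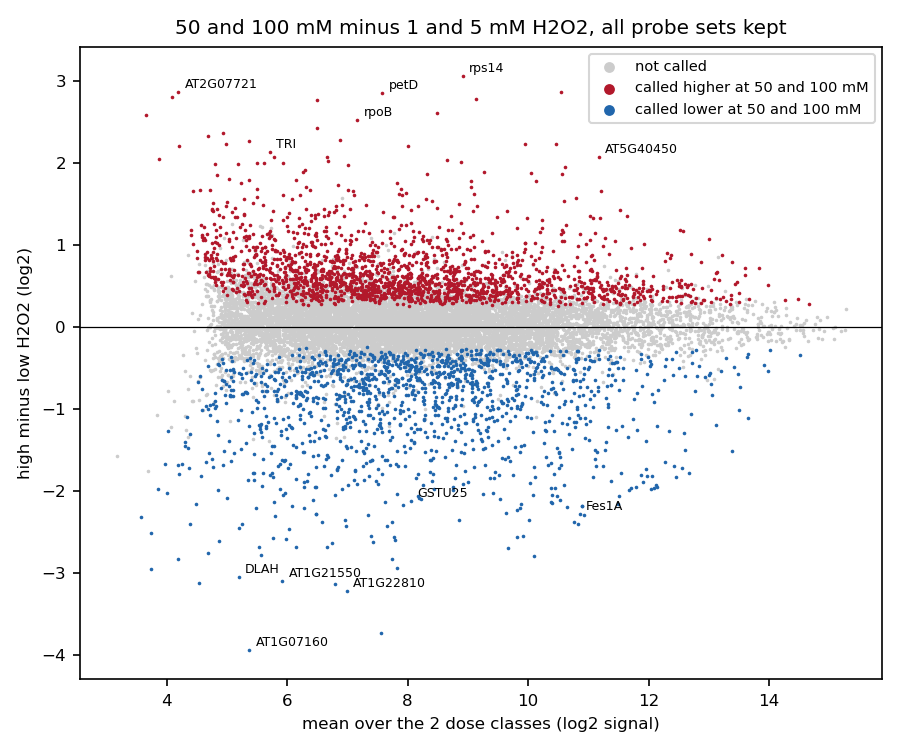
The difference between high and low H2O2 doses (vertical axis, log2) against the mean signal over the 2 dose classes (horizontal axis, log2) for the 12695 probe sets tested. Red points are the 1912 called higher, blue points the 1401 called lower and grey points those not called, and the largest fall, AT1G07160, lies at -3.95.

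The genes that fell furthest included a phosphatase, a transcription factor, a calcium-binding protein and a lipid enzyme. AT1G07160, a protein phosphatase of the PP2C family, read 3.16 and 4.20 at 50 mM (solvent, then BL, as in every such pair below) and 3.15 and 3.09 at 100 mM, against 7.59 and 7.15 at 1 mM and 7.33 and 7.31 at 5 mM. It was high on every low-dose array and near the lowest signal on the high-dose arrays, with no overlap. The measured change was -3.95 ± 0.25 (SE, adjusted p = 0.000282), and against a level of 5 the signal was at least 5.08-fold lower at high doses. AT1G22810, a transcription factor of the ERF family, read 6.10 and 6.35 at 50 mM and 4.53 and 4.55 at 100 mM, against 8.82 and 8.56 at 1 mM and 8.62 and 8.41 at 5 mM. It was lower at 100 than at 50 mM and level across the 2 low doses, and it fell by 3.22 ± 0.43 (adjusted p = 0.00236).

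AT1G21550, an EF-hand calcium-binding protein, read 4.32 and 4.42 at 50 mM and 4.13 and 4.62 at 100 mM, against 8.17 and 8.22 at 1 mM and 6.45 and 7.04 at 5 mM. Here the step lay within the low class too. The measured change was -3.10 ± 0.37 (adjusted p = 0.00162), and the signal was at least 5.54-fold lower. DLAH, an acylhydrolase that cleaves membrane lipids, ran the other way within the low class, with 4.01 and 4.11 at 50 mM and 3.05 and 3.48 at 100 mM, against 6.34 and 5.63 at 1 mM and 7.38 and 7.53 at 5 mM. It peaked at 5 mM, and the measured change of -3.06 ± 0.44 across the classes (adjusted p = 0.00311) was a fall of at least 3.30-fold. AT5G16980, an alcohol dehydrogenase-type reductase, fell by 2.95 ± 0.45 (adjusted p = 0.00379), and the pirin-like AT1G50590 by 2.68 ± 0.36 (adjusted p = 0.00237). AT1G66080, which encodes a Hikeshi-like protein of the HSP70 import pathway, fell by 2.63 ± 0.34 (adjusted p = 0.00226). The other falls among the 15 largest were AT1G70420 (-2.83), AT1G51920 (-2.83, at least 1.51-fold), AT4G17250 (-2.69), AT3G07150 (-2.69, at least 3.67-fold), AT5G12340 (-2.61) and AT4G22980 (-2.96, at least 1.17-fold). The call of AT4G22980 was lost without either 1 mM, 50 mM or 100 mM array in turn (adjusted p up to 0.0878), and it read 6.56 and 7.05 at 1 mM but 2.83 and 4.46 at 5 mM.

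The falls differed in where the arrays at 0 mM, outside the fit, stood beside them. For 788 of the 1401 probe sets called lower, the median of the 6 arrays at 0 mM lay under the means of both classes, for 383 it lay between them and for 230 over both (802, 372 and 227 without the third 0 mM solvent array). AT1G75880, a GDSL-type lipase, belonged to the last kind. It read 4.66 and 3.88 at 50 mM and 4.97 and 3.18 at 100 mM, against 7.37 and 7.14 at 1 mM and 6.89 and 6.41 at 5 mM, with a median of 8.15 at 0 mM (7.06 to 8.72). Its signal thus stepped down from 0 mM to low and again to high doses, and the measured change between classes was -2.78 ± 0.27 (adjusted p = 0.00101), at least 3.87-fold.

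The class III peroxidase AT4G26010, one of the secreted enzymes that use H2O2 at the cell wall, had the same order. It read 3.23 and 3.57 at 50 mM and 3.21 and 2.76 at 100 mM, against 6.09 and 5.25 at 1 mM and 5.86 and 5.20 at 5 mM, with a median of 7.84 at 0 mM (6.61 to 8.30). The measured change was -2.41 ± 0.20 (adjusted p = 0.000607), at least 1.52-fold. EXPA16, an expansin that loosens cell walls, fell by 1.87 ± 0.22 (adjusted p = 0.00162), at least 2.43-fold, with means of 4.41 ± 0.21 at high and 6.28 ± 0.46 at low doses (SD, n = 4 each) and a median of 8.31 at 0 mM.

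Heat shock proteins and their co-chaperones, which hold and refold damaged proteins, fell together. All 14 members tested (of 16 with a probe set) were called lower and none higher, beside 11.0% lower and 14.7% higher over the 6743 genes, and their median change was -1.93 against 0.05. The list was written with earlier results of these data known, so this count is a description and no independent test. The median member read 9.47 and 9.95 at 50 mM and 9.44 and 9.14 at 100 mM, against 12.2 and 12.1 at 1 mM and 10.9 and 11.3 at 5 mM. Both arrays at 25 mM lay below all 4 low-dose arrays for every member, beside 14.0% of all probe sets tested. Every member was lower at 5 than at 1 mM on the BL and on the solvent arrays. Over all probe sets tested, 50.4% had a lower mean at 5 than at 1 mM. Of the 14 members, 7 were called lower at 5 mM, beside 591 of all 12695 probe sets. At 100 mM all 14 were lower than at 50 mM on the BL arrays and 5 of 14 on the solvent arrays, and no difference between these doses was called (adjusted p from 0.440 to 0.895). Changes ran from -2.80 to -1.68 and adjusted p-values from 0.00222 to 0.0110.

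AT5G51440, a mitochondrial small heat shock protein, read 8.78 and 9.19 at 50 mM and 8.61 and 8.19 at 100 mM, against 12.3 and 12.0 at 1 mM and 10.7 and 11.1 at 5 mM. It fell by 2.80 ± 0.37 (adjusted p = 0.00233), and its high-dose arrays lay around the 0 mM median of 8.94. The J-domain protein AT2G20560, which delivers clients to HSP70, fell by 2.56 ± 0.38 (adjusted p = 0.00355). Fes1A, a nucleotide exchange factor of HSP70, fell by 2.28 ± 0.32 (adjusted p = 0.00277), and the HSP70 gene AT3G09440 by 2.20 ± 0.30 (adjusted p = 0.00252). Small heat shock proteins of other compartments followed, among them ATHSP22.0 of the endoplasmic reticulum (-2.06), the cytosolic AT2G29500 (-1.95) and AT1G53540 (-1.82), and AT1G52560 (-1.69). Hop3, which links HSP70 to HSP90, changed by -1.90, the FKBP-type AT5G48570 by -1.78 and HSA32, needed to maintain acquired thermotolerance, by -1.68.

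Set beside the 0 mM arrays, the members differed. Low-dose means lay above the 0 mM median for 14 of 14 members and high-dose means for 13 of 14, and for 6 of 14 members every high-dose array lay above every 0 mM array, beside 9.60% of all genes. The median member on the 6 arrays at 0 mM lay between 6.99 and 9.20, so that the 100 mM BL array (9.14) was within that range and the other high-dose arrays were above it. The 9.20 was read on the third 0 mM solvent array. The remaining 0 mM arrays reached at most 9.04, below every high-dose array. AT1G52560 had means of 8.45 at high and 10.1 at low doses and a median of 4.73 at 0 mM. All 14 kept their calls without any 1 array. Without both 100 mM arrays 2 of 14 were called lower, beside 224 of all 12695 probe sets. With the arrays of a dose averaged 9 of 14 were, beside 257 of 12695.

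**Figure D3:**
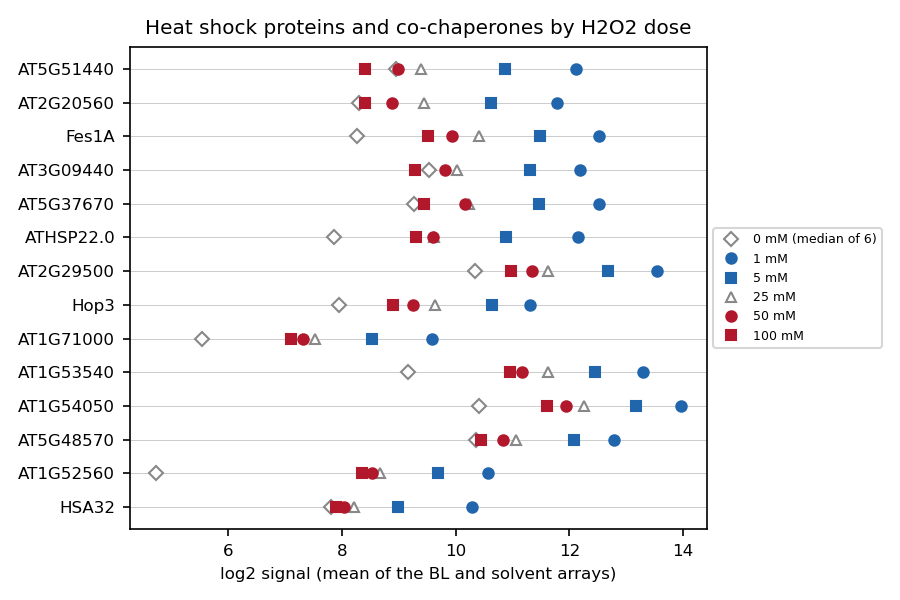
Signal (horizontal axis, log2, mean of the BL and solvent arrays of a dose, and the median of 6 arrays at 0 mM) of the 14 heat shock proteins and co-chaperones tested (vertical axis), from the largest fall at the top. In each row the red 50 and 100 mM symbols lie to the left of the blue 1 and 5 mM symbols.

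WRKY6, a regulator of senescence and defence, read 8.62 and 8.64 at 50 mM and 8.32 and 9.24 at 100 mM, against 11.8 and 11.8 at 1 mM and 10.1 and 10.1 at 5 mM. It fell by 2.23 ± 0.45 (adjusted p = 0.00977), with its highest signal at 1 mM. WRKY22, which acts in immune signalling, changed by -1.12, and 2 of 6 WRKY genes were called lower and 0 higher, beside 11.0% and 14.7% over all genes. WRKY22 was no longer called once the 100 mM solvent array was left out, with an adjusted p of 0.0527. STZ, a ZAT-type zinc finger repressor of the abiotic stress response, was the only gene of its kind tested and was called lower (-1.53). bHLH115, an iron-response regulator, was called at 0.60 (adjusted p up to 0.0510 without 1 array, the 1 mM BL array). It was the only 1 of 6 bHLH genes called, beside 14.7% higher over all genes.

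Among 6 calmodulin-like genes, 3 were called lower, beside 11.0% over all genes, and 0 higher. CML42 changed by -1.84 ± 0.18 (adjusted p = 0.00107), CML37 by -1.74 ± 0.20 (adjusted p = 0.00153) and CML23 by -1.68 ± 0.24 (adjusted p = 0.00291). CML37 read 5.71 and 6.23 at 50 mM and 6.05 and 5.86 at 100 mM, against 7.38 and 7.36 at 1 mM and 8.03 and 8.05 at 5 mM. At 0 mM it lay between 2.16 and 2.76, so that the high doses left it well above the untreated arrays, while CML23 (high-dose mean 5.21 ± 0.23, n = 4) lay under its 0 mM median of 5.69.

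Of 12 bZIP factors, 3 were called lower, beside 11.0% over all genes, and 1 higher, beside 14.7%. BZIP60, the transcription factor of the unfolded protein response that is switched on by splicing of its own mRNA, read 9.62 and 9.75 at 50 mM and 9.67 and 9.60 at 100 mM, against 11.3 and 10.9 at 1 mM and 10.8 and 10.7 at 5 mM. The arrays formed 2 separate levels, and the change was -1.27 ± 0.13 (adjusted p = 0.00111). BZIP53, a regulator of amino acid metabolism and seed maturation genes, changed by -0.73 ± 0.08 (adjusted p = 0.00149), and EEL, a relative of ABI5, by 0.81 ± 0.16 (adjusted p = 0.00878), at least 1.24-fold. BZIP28, which is held in the membrane of the endoplasmic reticulum until stress releases it, was called at -0.47, and its adjusted p reached 0.0919 without 1 array. In the list of 7 unfolded protein response genes, 2 were called lower (BZIP60 and BZIP28), beside 11.0% over all genes, and 1 higher, beside 14.7%. The gene called higher was the chaperone calreticulin CRT1b (0.59), whose adjusted p reached 0.0725 without 1 array.

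Detoxification enzymes moved in both directions. GSTU25, a glutathione S-transferase of the tau class, read 7.01 and 7.25 at 50 mM and 6.80 and 6.89 at 100 mM, against 9.14 and 9.05 at 1 mM and 9.05 and 9.24 at 5 mM. Each class was tight, and the change was -2.13 ± 0.11 (adjusted p = 0.000282). At 0 mM it lay between 2.12 and 2.58, so that even the high-dose arrays were far above the untreated ones. GSTU26, whose locus number follows that of GSTU25, read 9.32 and 9.18 at 50 mM and 8.62 and 9.61 at 100 mM, against 8.01 and 7.79 at 1 mM and 8.41 and 8.33 at 5 mM. It changed by 1.04 ± 0.22 (adjusted p = 0.0122), and GSTU27 by 0.59 ± 0.11 (adjusted p = 0.00885). Of 7 members tested, 2 were called higher, beside 14.7% over all genes, and 1 lower, beside 11.0%.

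Glycosyltransferases of the UGT family, which attach sugars to hormones, phenolics and foreign compounds, had 4 of 28 members called higher, a share near the 14.7% over all genes, and 7 lower, beside 11.0%, with a median of -0.11. UGT73B5 changed by -1.97 ± 0.22 (adjusted p = 0.00142), GT72B1, which conjugates phenolics, by -1.39 ± 0.14 (adjusted p = 0.00111), and UGT73B4 by -1.21 ± 0.15 (adjusted p = 0.00181). Their high-dose means of 9.46, 10.3 and 6.93 lay under low-dose means of 11.4, 11.7 and 8.14 and over 0 mM medians of 5.62, 6.82 and 2.26. UGT76E11 was called at -1.76, and its adjusted p reached 0.0847 without 1 array.

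Of 9 antioxidant genes tested, 1 was called lower, the share of falls over all genes (11.0%), and 0 higher, with a median change of -0.07. That gene was ATMDAR2, a monodehydroascorbate reductase that regenerates ascorbate, at -0.87 ± 0.10 (adjusted p = 0.00161). Among 7 glutaredoxins and thioredoxins, 1 was called lower, beside 11.0% over all genes, and 0 higher. The gene called was GRX480, a glutaredoxin that binds TGA factors. It read 8.15 and 7.88 at 50 mM and 7.41 and 7.59 at 100 mM, against 9.85 and 9.55 at 1 mM and 9.82 and 9.77 at 5 mM. It fell by 1.99 ± 0.16 (adjusted p = 0.000583) and stayed above its 0 mM median of 4.07. NDB2, an NADH dehydrogenase on the outer face of the inner mitochondrial membrane, changed by -1.35 ± 0.09 (adjusted p = 0.000282), and its high-dose mean of 5.85 lay near the 0 mM median of 5.67. AT2G21640, a mitochondrial marker of oxidative stress, was called at 0.42, and its adjusted p reached 0.125 without 1 array. ATG8H, a ubiquitin-like protein of the autophagosome, was the 1 of 11 autophagy genes called (-0.65 ± 0.11, adjusted p = 0.00515), beside 11.0% lower over all genes.

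**Figure D4:**
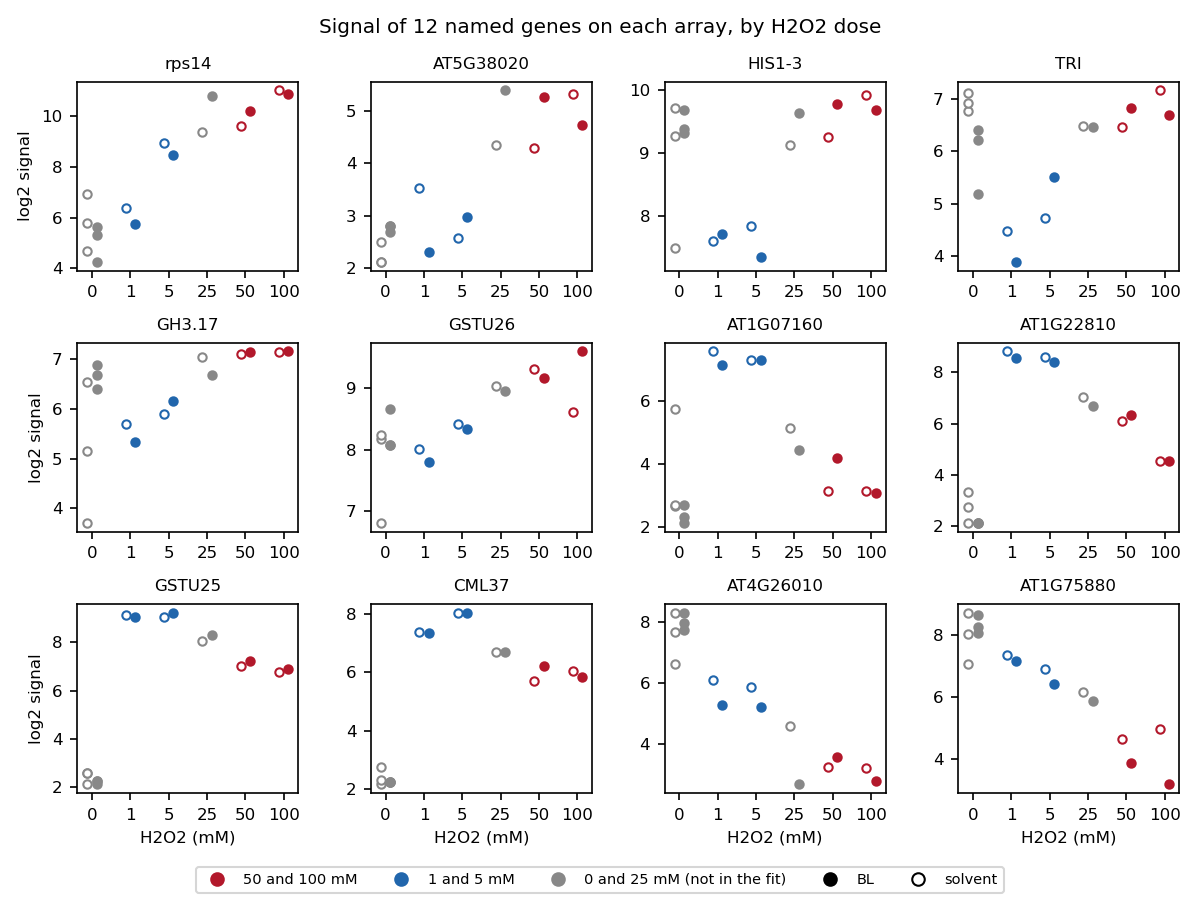
Signal (vertical axes, log2, each panel on its own scale) of 12 named genes on each of the 16 arrays by H2O2 dose in mM (horizontal axes), with filled points for BL and open points for solvent. The red 50 and 100 mM points of the first 6 genes lie above the blue 1 and 5 mM points, and those of the last 6 lie below them.

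Rises were led by genes of the chloroplast genome. The RNA was labelled with a 3′ one-cycle kit. Whether the signals of chloroplast and mitochondrial genes follow the amounts of their RNA was not tested. Of 69 plastid-encoded genes with a probe set of their own, all 69 were tested. Of these, 27 were called higher, beside 14.7% over all genes, and 5 lower, beside 11.0%, with a median change of 0.25. The largest rise of any named gene was that of rps14, a protein of the small plastid ribosomal subunit. It read 9.62 and 10.2 at 50 mM and 11.0 and 10.9 at 100 mM, against 6.38 and 5.73 at 1 mM and 8.95 and 8.46 at 5 mM. The signal climbed through all 4 doses, with the 5 mM arrays close to the 50 mM arrays, and the change was 3.06 ± 0.72 (adjusted p = 0.0177). That call was lost without either 100 mM array (adjusted p up to 0.0609).

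The cytochrome b6f complex links the 2 photosystems, and 3 of its 6 plastid genes were called higher, beside 14.7% over all genes. The gene petD, for subunit IV, read 8.35 and 9.00 at 50 mM and 9.36 and 9.34 at 100 mM, against 5.40 and 4.57 at 1 mM and 7.20 and 7.45 at 5 mM (2.86 ± 0.63, adjusted p = 0.0137). The small subunit genes petN and petG changed by 2.23 ± 0.46 (adjusted p = 0.0106) and 1.18 (adjusted p = 0.0105). Of the 4 subunits of the plastid-encoded RNA polymerase, rpoB read 7.54 and 7.87 at 50 mM and 9.15 and 9.15 at 100 mM, against 5.58 and 4.96 at 1 mM and 6.62 and 6.46 at 5 mM. It changed by 2.52 ± 0.49 (adjusted p = 0.00881), rpoC2 by 1.86 and rpoA by 0.57, while rpoC1, at 0.31, was not called (adjusted p = 0.175).

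Genes of the NADH dehydrogenase-like complex, which carries cyclic electron flow, included 5 of 10 called higher, from ndhF (2.03 ± 0.43, adjusted p = 0.0118) to ndhE (0.82), beside 14.7% over all genes, and 1 called lower, ndhA (-1.26). The adjusted p of ndhE reached 0.0977 and that of ndhG (1.50) 0.0594 without 1 array. Of 15 ribosomal protein genes, 6 were called higher, beside 14.7% over all genes, and 0 lower. Of 15 photosystem II genes, 3 were called higher and 3 lower, beside 14.7% and 11.0% over all genes. The rises were psbN, an assembly factor (2.23 ± 0.37, adjusted p = 0.00513), psbT (1.88) and psbB, for an inner antenna protein (1.78). The falls were psbE and psbF, the cytochrome b559 subunits (-1.34 and -0.73), and psbD, for the reaction centre protein D2 (-1.26). The fifth fall was atpB of the ATP synthase (-0.35), whose adjusted p reached 0.116 without 1 array. These 5 falls are named because they were few, after their values were seen.

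Changes along the plastid genome ran in stretches of neighbours with breaks between them. In the order of the RefSeq table, psbB (1.78), psbT (1.88) and psbN (2.23) were followed by psbH (-0.53) and petB (-0.25), neither called, and then by petD (2.86). The gene rps14 (3.06) lay beside psaB (-0.16) and psaA (-0.45), which encode the photosystem I core and were not called. The rises of ndhD, psaC, ndhE and ndhG (1.35, 1.89, 0.82 and 1.50) ended at ndhI (-0.24, not called) and ndhA (-1.26, called lower), and ndhH (1.47) and rps15 (1.95) followed. The gene pairs were read after these values were seen, and no test was made of them.

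For 25 of the 69 genes every high-dose array lay above every 0 mM array, beside 9.60% of all genes. Of the genes with the largest rises, rps14 (median 5.47 at 0 mM), petD (4.56) and rpoB (5.28) had low-dose means (7.38, 6.15 and 5.91) between the 0 mM and the high-dose level. The plastid median on the 5 mM BL array (10.8) was the lowest of the 8, beside 11.3 on the 5 mM solvent array. Without the 5 mM BL array 23 plastid genes were called higher and 13 lower, beside 1957 and 1395 of all 12695 probe sets. Without both 100 mM arrays the plastid counts were 2 and 0, beside 155 and 224 of 12695. With the arrays of a dose averaged 5 were called higher, beside 226 of 12695. With no filter on low values 9 were called higher, beside 919 of 22746 probe sets. Of 10 nuclear photosynthesis genes 0 were called, with changes between -0.17 and 0.09. LHCB4.1, a minor light-harvesting antenna, had means of 13.9 ± 0.09 at high and 14.1 ± 0.07 at low doses (SD, n = 4 each, adjusted p = 0.185).

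**Figure D5:**
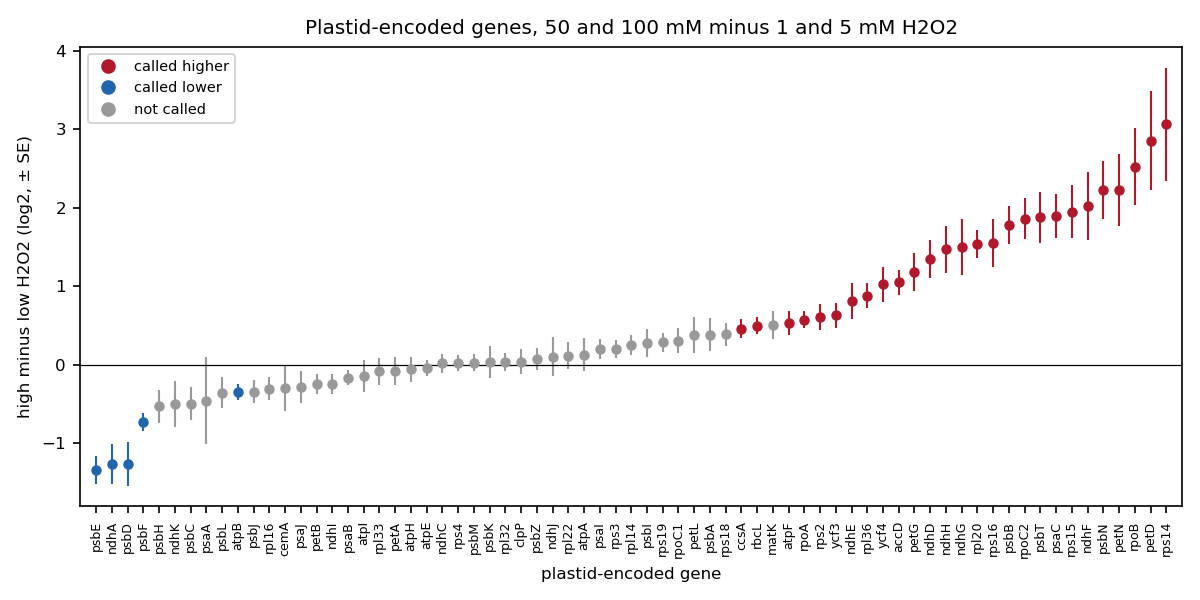
The difference between high and low H2O2 doses (vertical axis, log2, bars ± SE) for the 69 plastid-encoded genes tested (horizontal axis, in order of the difference). The 27 genes called higher (red) reach 3.06 for rps14, the 5 called lower (blue) reach -1.34 for psbE, and 37 were not called (grey).

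Of 8 mitochondria-encoded genes tested, 2 were called higher, beside 14.7% over all genes, and 0 lower, with a median of 0.29. The complex I subunit nad4 read 10.7 and 10.4 at 50 mM and 10.7 and 11.3 at 100 mM, against 9.83 and 9.49 at 1 mM and 9.66 and 9.52 at 5 mM (1.16 ± 0.19, adjusted p = 0.00454), and nad9 changed by 0.73 ± 0.16 (adjusted p = 0.0152). AT2G07721, a locus on chromosome 2, was tested only through its high-dose arrays. It read 5.33 and 5.29 at 50 mM and 5.68 and 6.21 at 100 mM, against 2.94 and 2.42 at 1 mM and 2.71 and 2.97 at 5 mM. It was near the lowest signal on the low-dose arrays and on the arrays at 0 mM (2.38 to 3.10), and the measured change of 2.87 ± 0.22 (adjusted p = 0.000545) was at least 1.54-fold.

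In several nuclear rises the low-dose mean lay below both the high-dose mean and the 0 mM median, although low-dose and single 0 mM arrays overlapped. HIS1-3, a linker histone induced by drought, read 9.26 and 9.78 at 50 mM and 9.93 and 9.70 at 100 mM, against 7.62 and 7.72 at 1 mM and 7.85 and 7.35 at 5 mM, with a median of 9.36 at 0 mM (7.50 to 9.72). The low-dose arrays lay below 5 of the 6 arrays at 0 mM and on both sides of the lowest one, and the change was 2.03 ± 0.17 (adjusted p = 0.000607). TRI, a tropinone reductase-like dehydrogenase, changed by 2.14 ± 0.32 (adjusted p = 0.00345), with means of 6.79 ± 0.29 at high and 4.65 ± 0.67 at low doses (SD, n = 4 each) and a median of 6.58 at 0 mM. The defensin PDF2.5 changed by 2.00 ± 0.51 with a 0 mM median of 6.02, between its class means of 6.62 and 4.62, and its adjusted p of 0.0231 reached 0.0715 without 1 array. GH3.17, which joins auxin to glutamate and so inactivates it, read 7.11 and 7.15 at 50 mM and 7.15 and 7.16 at 100 mM, against 5.69 and 5.34 at 1 mM and 5.91 and 6.16 at 5 mM. Its change was 1.37 ± 0.17 (adjusted p = 0.00171), with a median of 6.48 at 0 mM (3.70 to 6.88).

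Over all 1912 probe sets called higher, the 0 mM median lay over both class means for 636, between them for 963 and under both for 313 (679, 905 and 328 without the third 0 mM solvent array). Among those that rose by at least 1 log2 unit the counts were 35, 175 and 69. Rises over every untreated array included AT5G38020, a methyltransferase of the SABATH family, with 4.30 and 5.27 at 50 mM and 5.33 and 4.73 at 100 mM, against 3.53 and 2.31 at 1 mM and 2.58 and 2.98 at 5 mM. At 0 mM it lay between 2.12 and 2.80. The measured change was 2.05 ± 0.31 (adjusted p = 0.00370), with no bound to give, since the high-dose mean of 4.90 was also under 5. AT5G38020 passed the filter only through the high-dose arrays that read 5.27 and 5.33, so its change is a description. AT3G45710, a transporter of the NPF family, changed by 2.07 ± 0.28 (adjusted p = 0.00259), with a high-dose mean of 7.70 ± 0.37 and a highest value of 6.62 at 0 mM. AT4G29700, an alkaline phosphatase-like protein, changed by 2.07 ± 0.39 (adjusted p = 0.00818). AT3G62040 was tested only through its high-dose arrays, so its measured change of 2.23 ± 0.19 (adjusted p = 0.000607), at least 2.14-fold, is a description. AT5G40450, known as a regulator of vacuole shape, changed by 2.07 ± 0.35 (adjusted p = 0.00524), and its highest value at 0 mM (12.0) lay within its high-dose range.

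Among 4 auxin response genes, beside 14.7% higher and 11.0% lower over all genes, GH3.17 and WES1, another auxin-conjugating enzyme, were called higher and the Aux/IAA repressor IAA18 lower (-0.63 ± 0.13, adjusted p = 0.0112). The gibberellin receptors GID1A and GID1B were called in opposite directions (0.37 and -0.57), as were the cold-regulated COR15A (1.24, at least 1.14-fold) and the dehydrin LTI30 (-1.18). The calls of WES1 (0.75), GID1A, GID1B, COR15A and LTI30 were each lost without 1 array, with adjusted p-values up to 0.117, 0.0902, 0.127, 0.0697 and 0.0952. Of 8 abscisic acid and dehydration genes 1 was called higher and 1 lower, near the 14.7% and 11.0% over all genes. Of 5 cellulose synthase-type genes 1 was called higher, beside 14.7% over all genes, the mannan synthase-type CSLA03 (0.75 ± 0.15, adjusted p = 0.00939).

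A list headed glucosinolates held mainly β-glucosidases, and 3 of its 13 members were called higher, beside 14.7% over all genes, and 0 lower. They were BGLU45, which acts on lignin precursors (1.37 ± 0.29, adjusted p = 0.0120), BCAT4, which starts the chain elongation of methionine for glucosinolates (0.95 ± 0.21, adjusted p = 0.0146), and PYK10, the β-glucosidase of root ER bodies. PYK10 read 13.9 and 13.9 at 50 mM and 13.9 and 14.1 at 100 mM, against 13.0 and 13.2 at 1 mM and 13.4 and 13.4 at 5 mM, and changed by 0.71 ± 0.11 (adjusted p = 0.00384). In whole seedlings a change in the share of a tissue and a change of RNA per cell cannot be told apart.

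Among 6 histone genes, HIS1-3 and the linker histone-like HON4 (0.41, adjusted p up to 0.0949 without 1 array) were called higher, beside 14.7% over all genes, and 0 lower. The 11 cytochromes P450 tested were all of the CYP71B group, with 3 called higher and 1 lower, beside 14.7% and 11.0% over all genes. No change was above 0.56 in size, and each of these calls was lost without 1 array (adjusted p up to 0.115). No member was called among 6 xyloglucan endotransglucosylases, 6 salicylate and defence genes or 12 reference genes. The largest changes there were those of XTH18 (-0.43, adjusted p = 0.0571), XTH19 (0.31, adjusted p = 0.538), PDF1.2 (0.51, adjusted p = 0.233), SAG101 (0.46, adjusted p = 0.0925), TUB1 (0.71, adjusted p = 0.0589) and TUA1 (-0.33, adjusted p = 0.0676).

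The doses within a class were compared for scale. Between 100 and 50 mM, limma with dose as a factor called 0 of 12695 probe sets (0%), with 1171 at an unadjusted p under 0.05. Between 5 and 1 mM it called 1002 (7.89%), 411 higher and 591 lower at 5 mM. The median size of the difference was 0.129 between 100 and 50 mM, 0.178 between 5 and 1 mM and 0.233 between the classes. Both steps used arrays of the class comparison, so agreement with it is given only as counts. Of the 1401 probe sets called lower at high doses, 1137 were lower at 5 than at 1 mM (81.2%, beside 50.4% of all tested) and 1026 lower at 100 than at 50 mM (73.2%, beside 46.9%). Of the 1912 called higher, 1269 were higher at 5 than at 1 mM (66.4%, beside 49.5%) and 1598 higher at 100 than at 50 mM (83.6%, beside 53.1%).

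The 2 arrays at 25 mM, which the main fit did not use, lay nearer to the high doses. Their 3′ minus 5′ differences (1.70 and 1.80) also lay above those of every low-dose array, and the part of this measure was not tested. The counts that follow are of signals. Both 25 mM arrays were below all 4 low-dose arrays for 1148 of the probe sets called lower (81.9%, beside 14.0% of all tested). They were above them for 1353 of those called higher (70.8%, beside 19.7%). The median position at 25 mM was 75.8% of the way from the low-dose to the high-dose mean for falls and 71.5% for rises. GSTU25 read 8.07 and 8.32 at 25 mM, about midway between its classes, while HIS1-3, at 9.14 and 9.65, already lay within or near its high-dose range.

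Whether BL altered the effect of dose was asked with the interaction of dose class and BL in limma. No probe set was called (0 of 12695, 0%, lowest adjusted p = 1.00), and 324 had an unadjusted p under 0.05. For the heat shock list the interaction terms lay between -0.38 and 0.35 on both sides of 0. For the plastid-encoded genes all 69 were above 0, between 0.02 and 1.20, and none was called. Each of these terms used the 5 mM BL array, where the plastid median was 10.8, beside 11.3 on the 5 mM solvent array. The part of that array in the terms was not tested. These members were read on the same arrays and are not independent, and the share above 0 over all genes was not counted.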

How the data were processed

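Total RNA from whole seedlings was labelled as biotin cRNA with a 3′ one-cycle kit, per the labels' protocols, and hybridised to Affymetrix arrays. The authors deposited log2 signals per probe set, for which the submitters' processing notes name GCRMA. Its version and the genome build are not given in the sources used here. Here 64 control probe sets were left out and the rest kept with a signal of at least 5 on at least 2 of 8 arrays. Names came from the platform annotation, updated by gene ID to RefSeq (13436 of 13513 single-gene probe sets matched, and 18 more mitochondrial ones by symbol), and 8730 probe sets had no name and 503 several. High minus low dose was fitted with limma 3.58.1 in R 4.3.3, with BL as an additive term, 5 residual degrees of freedom and Benjamini-Hochberg adjustment. The interaction fit left 4 and the fit of dose as a factor 3. Tested on simulated data of 12695 probe sets for this comparison, the fit recovered 77 of 100 changes of 1 log2 unit and 98 of 100 of 2, with 13 false calls among 188. The simulated noise was independent between arrays. In the data, the arrays of a dose had a consensus correlation of 0.304 in the random block fit, so these rates need not hold there. The text names the 15 largest called rises and 15 largest called falls without overlap between classes, 1 probe set per gene (the brightest), and up to 4 called members of each list with at least 3 tested. Gene lists were matched by symbol and locus, and wrong matches were removed after values were seen. The members and lists were chosen with earlier results of these data known. Lists with no tested member were heat shock factors, ERF and DREB, MYB, JAZ, calcium-dependent kinases, cyclins, auxin transport, brassinosteroid, arabinogalactan proteins, aquaporins and dark or sugar starvation. Lists with 1 or 2 tested members, other than STZ and AT1G07160, gave NAC014 called higher (0.64) and no call among MAP kinases, proteasome, ribosomal proteins, ethylene, jasmonate and the circadian clock. Planned promoter motifs were not analysed here.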

Additional observations from a re-analysis of the deposited data

Results flagged for a closer look

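In 9 of 170 groups of 4 arrays, 1 array lay further from the rest than Dixon's test allows, and chance gives about 1 in 20. In the high class, AT1G07160 read 4.20 on the 50 mM BL array and at most 3.16 on the others. On the 100 mM BL array, AT5G12340 read 6.84 and at most 6.39 elsewhere in its class, BZIP28 read 7.68 and at least 7.98 elsewhere, UGT73B4 read 6.50 and at least 7.05 elsewhere, and PYK10 read 14.1 and at most 13.9 elsewhere. XTH18 read 11.6 on the 100 mM solvent array and at least 11.7 on the others. In the low class, AT5G40450 read 11.3 on the 5 mM BL array and at most 9.80 on the others, and BZIP28 read 8.70 on the 1 mM BL array and at most 8.31 on the others. AT2G21640 read 7.14 on the 5 mM solvent array and at least 7.56 on the others.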

How the results depend on the processing

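The counts of probe sets called higher and lower at high doses (1912 and 1401) depended on the fit, and no gene named as called changed direction in any of up to 27 alternatives. They were 919 and 708 with no filter, 761 and 581 with all 16 arrays in the fit, 1126 higher with dose as a random block, 226 and 257 with the arrays of a dose averaged, 622 and 621 at an adjusted p under 0.01, and 279 and 494 with a log2 change of at least 1. They were 837 and 828 without the 1 mM arrays, 1130 and 813 without the 50 mM arrays, 155 and 224 without the 100 mM arrays, 92 and 93 on the solvent arrays only, and 0 and 0 on the BL arrays only, in fits with fewer arrays. Leaving out 1 array at a time gave 1009 to 1957 higher and 870 to 1478 lower, with counts moved by over 1.5 times without the 1 mM solvent (1142 and 923), 1 mM BL (1172 higher), 100 mM solvent (1009 and 891) or 100 mM BL array (1038 and 870), and 57 of the 76 called named genes kept their call throughout. Of those 76, 41 lost it with the arrays of a dose averaged, 34 with no filter, 27 with all 16 arrays, 27 at an adjusted p under 0.01, 13 with dose as a random block, 46 without the 100 mM arrays and 76 on the BL arrays only. With no filter the interaction gave 3 calls, and 0 in every fit without 1 array. The 100 minus 50 mM step gave 2 with no filter, 1 at a mean of at least 6 and 4 with trend and robust moderation, and the 5 minus 1 mM step 18 with no filter, 191 at an adjusted p under 0.01 and 319 with a log2 change of at least 1; the alternatives for both steps, and those for list counts, were chosen after seeing the data. The 3′ minus 5′ difference stayed between 0.245 and 0.343 without any 1 array. The causes were not tested. No paired analysis was possible because the 8 arrays all carry the replicate number 1, and a block needs 2 or more numbers shared between the classes. Signals near the lowest value limit the size of falls, and the small number of arrays limits the smaller changes.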

Other observations

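Unnamed probe sets made up 856 of the 1912 called higher and 623 of the 1401 called lower, so that the named genes give a partial view of the comparison. For some of the genes named, the 0 mM arrays spread widely. AT1G51920 had a median of 3.09 and a highest value of 10.5 there, beside means of 2.77 ± 0.35 at high and 5.59 ± 0.52 at low doses (SD, n = 4 each). AT5G12340 had a median of 5.62 and a highest value of 10.0 at 0 mM, and WRKY22 a median of 9.09 and a highest value of 12.1. These arrays entered no test.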
